A study of Mus musculus with 12 samples.

Results

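The 28 genes examined here encode enzymes and regulators of cholesterol and fatty acid synthesis. They were taken by gene name from a table of 54532 genes, not by a threshold on their values, and all 28 were among the 24102 genes tested. Total colon RNA was sequenced from 12 libraries of C57BL/6N mice, 3 in each of 4 groups. Tmem173fl/fl mice, called WT in the labels, carry a floxed Tmem173 gene, which encodes STING, a sensor adaptor of cytosolic DNA, and no Cre. Tmem173iΔmye mice, called CRE in the labels, carry the same floxed gene and a tamoxifen-inducible Lyz2-Cre ert2, whose promoter is active in macrophages, monocytes and neutrophils. Both genotypes received 5 tamoxifen injections, so the controls carry the treatment too. The mice were 6 to 8 weeks old. Colitic mice were given dextran sulfate sodium (DSS) at 2.5% to 3% in drinking water for 7 days, an agent toxic to the epithelial lining, and plain water for 1 more day, and untreated mice drank water. Each genotype thus had an untreated and a colitic group, and libraries of colitic Tmem173iΔmye mice are numbered 1, 2 and 5.

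Cells build cholesterol from acetyl-CoA through mevalonate, isoprenoids, squalene and lanosterol, and build fatty acids from the same acetyl-CoA through malonyl-CoA. Most genes of both routes are switched on by the SREBP transcription factors, which are held in the endoplasmic reticulum while sterols are plentiful and otherwise move to the nucleus and bind sterol regulatory elements, often beside the factors NF-Y and Sp1. In the gut, these routes supply membrane lipid to an epithelium that renews itself continuously.

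RefSeq promoters on GRCm38.p6, from 250 bases before to 50 bases after the start, were found for 22 of the 28 genes and not for Fdps, Fdft1, Sqle, Stard4, Scd1 and Scd2. The letters TCACNCCAC (a core sterol regulatory element), TCACNCC (its shorter form, which every TCACNCCAC contains), CCAAT (the NF-Y box), GGGCGG (the Sp1 box) and CACGTG (an E-box) were searched on both strands. TCACNCCAC occurred in 1 of the 22 genes, Hmgcs1, against 1.44% of 27025 genes. TCACNCC occurred in 3 of 22, Hmgcs1, Srebf2 and Msmo1, which is 13.6% against 17.6% of all genes. CCAAT occurred in 20 of 22 (90.9%, against 41.1% of all genes), GGGCGG in 18 of 22 (81.8%, against 38.2%) and CACGTG in 4 of 22 (18.2%, against 8.09%). A match of letters is a description of the sequence and not a bound site. Bases upstream of the start are shown for the gene with the TCACNCCAC match (Hmgcs1, chr13:119690101-119690350, plus strand), for the sterol regulator with TCACNCC (Srebf2, chr15:82147019-82147180, plus strand), for the mevalonate kinase gene with 5 CCAAT matches (Mvk, chr5:114444019-114444268, plus strand) and for the fatty acid synthase gene with 3 (Fasn, chr11:120824548-120824797, minus strand). The stretch of Srebf2 is 162 bases long and ends before the RefSeq start, where the deposited interval of the gene begins, and the others hold the 250 bases before the start. Each is written 5′ to 3′ on the strand of its gene, and capitals mark TCACNCCAC, TCACNCC and CCAAT on either strand, so that ATTGG is CCAAT read on the opposite strand.
Hmgcs1: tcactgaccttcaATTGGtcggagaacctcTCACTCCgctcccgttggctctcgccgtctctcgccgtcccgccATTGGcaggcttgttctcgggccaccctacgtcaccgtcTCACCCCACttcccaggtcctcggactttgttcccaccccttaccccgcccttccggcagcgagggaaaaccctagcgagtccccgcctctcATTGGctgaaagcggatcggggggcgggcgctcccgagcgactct
Srebf2: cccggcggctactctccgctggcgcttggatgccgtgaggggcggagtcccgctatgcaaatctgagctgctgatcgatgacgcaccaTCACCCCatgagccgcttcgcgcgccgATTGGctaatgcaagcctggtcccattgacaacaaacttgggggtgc
Mvk: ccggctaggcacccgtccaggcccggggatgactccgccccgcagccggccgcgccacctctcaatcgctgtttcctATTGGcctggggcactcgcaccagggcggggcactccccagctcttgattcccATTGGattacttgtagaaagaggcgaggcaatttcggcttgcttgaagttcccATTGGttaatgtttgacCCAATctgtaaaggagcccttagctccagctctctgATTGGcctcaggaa
Fasn: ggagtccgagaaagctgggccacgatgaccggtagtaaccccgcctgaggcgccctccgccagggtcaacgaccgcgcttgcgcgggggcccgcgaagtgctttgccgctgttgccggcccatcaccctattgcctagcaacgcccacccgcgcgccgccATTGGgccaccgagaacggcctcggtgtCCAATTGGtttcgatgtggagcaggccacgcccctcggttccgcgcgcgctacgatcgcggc

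Library totals ran from 13823237 to 18718915 counts. Levels are given as CPM, deposited counts scaled by TMM to a common total, and the adjusted p-values from edgeR cover all genes tested. The targeted gene Tmem173 was at 37.7 to 44.0 CPM in colitic Tmem173fl/fl and 23.8 to 47.8 CPM in colitic Tmem173iΔmye libraries (log2 fold change -0.28, SE 0.26, edgeR adjusted p 0.602), and a loss was not detectable in counts over the whole gene. Xist, which is transcribed from an inactive X chromosome, was at 1230 to 1840 CPM in 3 libraries (replicate 3 in each untreated group, and colitic Tmem173iΔmye replicate 5), with the Y-linked Ddx3y at 0, and at 0.203 to 0.545 CPM in the other 9 libraries, while the sex of the mice was not given in the sources used here. Pancreatic enzyme transcripts, summed over 8 genes, ranged from 43.6 to 8551 FPKM between libraries with 484 to 7695 FPKM in colitic Tmem173fl/fl mice, and Cpa1, Cela3b, Pnlip and Ctrb1 were at 0 in the same 3 untreated libraries, Tmem173fl/fl replicates 1 and 2 and Tmem173iΔmye replicate 1. The kit does not mark strand, so reads of overlapping genes such as Ctsb, which covers part of Fdft1, cannot be told apart. Near-identical copies cover 91.4% of the Fdps transcript and 64.3% of the Acaca transcript (at least 98% identity over at least 100 bases), and the pseudogenes Gm3571 and Gm5182 were listed with 1396 and 2872 counts in all against 1417 for Fdps and 17951 for Acaca, so levels of Fdps are uncertain.

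In the untreated colon the pathway was led by 1 desaturase. Compared per length, Scd2, which places a double bond in saturated fatty acids, had a level of 500.1 ± 82.1 FPKM (SD, n = 3) in untreated Tmem173fl/fl mice and made up 35.6% of the summed FPKM of the 28 genes. Acly, which makes acetyl-CoA from citrate, followed at 112 FPKM, then Hmgcs1, the synthase of HMG-CoA, at 102 FPKM, the paralog Scd1 at 55.0 FPKM and Fasn, the fatty acid synthase, at 49.8 FPKM. The lowest were Acaca at 7.07 FPKM, the sterol reductase gene Tm7sf2 at 5.12 FPKM and Fdps at 2.46 FPKM. The deposited lengths of these genes are 17074, 5593 and 4208 bases, against 9513, 1498 and 1382 bases in their longest coding transcript. Their place in this order thus depends on the length used. In colitic Tmem173fl/fl mice Scd2 was still the highest, at 71.2 FPKM, with 15.4% of the sum. The summed level of the 28 genes was 1222 to 1531 FPKM in untreated Tmem173fl/fl, 1378 to 1479 FPKM in untreated Tmem173iΔmye, 421 to 520.1 FPKM in colitic Tmem173fl/fl and 458 to 1009 FPKM in colitic Tmem173iΔmye libraries. The colitic Tmem173iΔmye libraries thus spread more widely than the other groups, with their lowest value inside the colitic Tmem173fl/fl range.

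**Figure D1:**
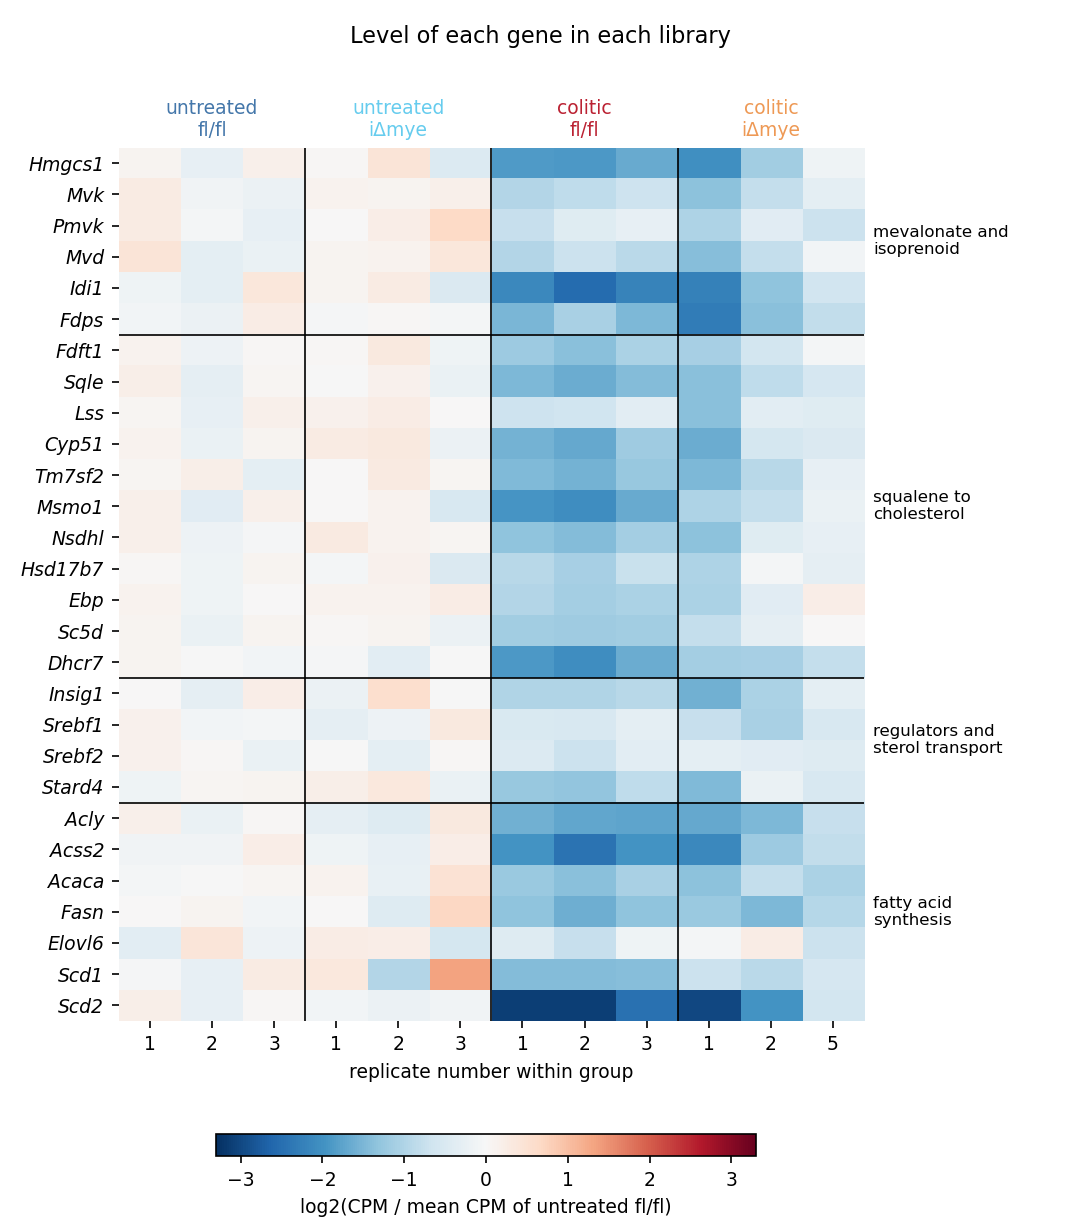
Level of each of the 28 genes (rows, by role) in each of the 12 libraries (columns, by group and replicate number), as the log2 ratio of its CPM to its mean in untreated Tmem173fl/fl libraries. The 3 colitic Tmem173fl/fl columns are lower than the untreated ones for nearly every gene, and among the colitic Tmem173iΔmye columns replicate 1 is the lowest for 23 genes and replicate 5 the highest for 21.

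The comparison of colitic with untreated Tmem173fl/fl mice asks how DSS colitis moves these genes when STING is intact. Both routes were lower in colitis. All 28 genes had a log2 fold change below 0, though only 18 of them with libraries scaled to epithelial markers (an alternative described further on), and the median was -1.18 against 0.03 over all genes tested. A gene was called at an adjusted p under 0.05 and a fold of at least 2. Of the 28 genes 18 were called lower, where 7.61% of all genes were called lower, and at the adjusted p alone 24 were lower (16% of all genes). The 3 colitic libraries lay below the 3 untreated ones for 27 of the 28 genes, as for 25.4% of all genes, and Elovl6 was the exception. In bulk tissue, fewer cells that express these genes and less RNA per cell cannot be told apart.

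In the mevalonate and isoprenoid segment 3 of 6 genes were called lower, with a median of -1.02. Hmgcs1 (ENSMUSG00000093930), which makes the HMG-CoA that feeds mevalonate, was at 510.2, 397 and 540.2 CPM in untreated and 131, 130.2 and 153 CPM in colitic libraries. Every colitic value was well below every untreated one, and Hmgcs1 fell by 1.74 on the log2 scale (SE 0.17, edgeR adjusted p 4.37e-05). Idi1 (ENSMUSG00000058258), the isomerase of the isoprenoid building block, went from 90.9, 79.4 and 128 CPM to 22.6, 17.1 and 21.4 CPM. It had the second steepest fall of the 28 genes, by 2.22 (SE 0.20, edgeR adjusted p 3.10e-05), from a mean of 99.5 ± 25.6 to 20.4 ± 2.92 CPM (SD, n = 3 each). Fdps, the farnesyl diphosphate synthase, fell by 1.27 (edgeR adjusted p 0.00238) at a low level of 3.74 to 12.6 CPM, and by 1.32 with the counts of Gm3571 added. The kinases and the decarboxylase between these steps moved less. Mvk at -0.76 and Mvd at -0.78 had an edgeR adjusted p of 0.00651 and 0.0138 but stayed under a 2-fold change, and the phosphomevalonate kinase gene Pmvk, at -0.39, did not pass (edgeR adjusted p 0.137).

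From squalene to cholesterol 8 of 11 genes were called lower and all 11 were lower at the adjusted p alone, with a median of -1.22. Sqle, the squalene epoxidase and an early rate-limiting step of the sterol branch, was at 257, 183 and 238 CPM in untreated and 81.7, 73.0 and 84.1 CPM in colitic libraries, and fell by 1.44 on the log2 scale (SE 0.16, edgeR adjusted p 1.09e-04). The groups did not overlap, and the colitic libraries lay close together. Cyp51, which removes a methyl group from lanosterol, went from 231, 184 and 228 CPM to 72.4, 66.6 and 95.7 CPM and fell by 1.39 (SE 0.18, edgeR adjusted p 2.28e-04). Tm7sf2, a sterol reductase, was at 30.9, 33.7 and 23.6 CPM and 10.7, 9.99 and 12.5 CPM, a fall by 1.34 (SE 0.18, edgeR adjusted p 3.63e-04). Both genes were lower in each colitic library than in any untreated one.

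Further along the same branch, Msmo1 (ENSMUSG00000031604), the oxidase that starts the removal of the next methyl groups, went from 306, 212 and 306 CPM to 71.0, 66.8 and 86.5 CPM. The lowest untreated value was more than 2 times the highest colitic value, and Msmo1 fell by 1.81 on the log2 scale (SE 0.19, edgeR adjusted p 6.60e-05). Dhcr7 (ENSMUSG00000058454), the reductase that completes cholesterol, went from 168, 157 and 149 CPM to 42.8, 38.2 and 50.8 CPM and fell by 1.78 (SE 0.15, edgeR adjusted p 1.54e-05). It was the tightest of the strongly lowered sterol genes in untreated mice, at 158 ± 9.57 CPM (SD, n = 3). The squalene synthase gene Fdft1 (-1.13), the dehydrogenase gene Nsdhl (-1.22) and the desaturase gene Sc5d (-1.09) were called lower too, with edgeR adjusted p from 1.68e-04 to 2.63e-04. The isomerase gene Ebp (-0.98), the ketosteroid reductase gene Hsd17b7 (-0.85) and the lanosterol synthase gene Lss (-0.49) were lower at the adjusted p with a fitted change of less than 2-fold (the ratio of mean CPM of Ebp was 2.07), with edgeR adjusted p from 3.07e-04 for Ebp to 0.037 for Lss. Lss thus had the smallest change of the branch.

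Of the 4 regulator and transport genes 1 was called lower, Stard4, and the median was -0.66. Srebf2, the SREBP gene that mainly serves sterol synthesis, was at 380.2, 356 and 295 CPM in untreated and 251, 211 and 271 CPM in colitic libraries, a log2 fold change of -0.42 (SE 0.16, edgeR adjusted p 0.0635). Srebf1, the SREBP gene that mainly serves fatty acid synthesis, was at 198, 169 and 169.8 CPM and 126, 123 and 142 CPM, a log2 fold change of -0.39 (SE 0.14, edgeR adjusted p 0.0515). The colitic libraries were lower than the untreated ones for both genes, but neither passed the test, and with libraries scaled to epithelial markers both values turned positive, to 0.56 for Srebf2 and 0.61 for Srebf1. Insig1, whose protein retains SREBPs in the endoplasmic reticulum and whose gene is itself an SREBP target, went from 134, 109 and 156 CPM to 66.6, 66.9 and 70.9 CPM, a log2 fold change of -0.90 (SE 0.16, edgeR adjusted p 0.00149), which is just under a 2-fold change, and was at 0.081 under the epithelial scaling. Stard4, which carries cholesterol between membranes, fell by 1.05 (edgeR adjusted p 8.39e-04) and was not called without replicate 3 of the untreated or replicate 2 of the colitic group, with 17 genes called in either case.

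Of the fatty acid genes 6 of 7 were called lower, with a median of -1.36. Acly was at 677, 518 and 620.5 CPM in untreated and 202, 185 and 180 CPM in colitic libraries and fell by 1.61 on the log2 scale (SE 0.16, edgeR adjusted p 4.46e-05). Acss2, which makes acetyl-CoA from acetate, went from 127, 125 and 158 CPM to 34.8, 25.4 and 34.5 CPM and fell by 2.05 (SE 0.17, edgeR adjusted p 1.71e-05). Both sources of acetyl-CoA were thus lower in every colitic library than in any untreated one. Acaca, the acetyl-CoA carboxylase that commits carbon to fatty acids, went from 119, 123 and 129 CPM to 53.3, 47.6 and 59.4 CPM, a fall by 1.14 (SE 0.13, edgeR adjusted p 1.23e-04). Fasn (ENSMUSG00000025153) went from 560, 590.3 and 527 CPM to 221, 182 and 221 CPM, a fall by 1.36 (SE 0.15, edgeR adjusted p 8.05e-05). The elongase gene Elovl6 was the only gene of the 28 whose groups overlapped, at 93.8, 156 and 106 CPM against 88.1, 69.6 and 107 CPM (-0.36, edgeR adjusted p 0.227).

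The desaturase paralogs fell to unequal extents. Scd2 (ENSMUSG00000025203) was at 3225, 2307 and 2860 CPM in untreated and 324, 324 and 504 CPM in colitic libraries. Its mean was 7.29-fold lower in colitis, the largest change of the 28 genes, and it fell by 2.80 on the log2 scale (SE 0.23, edgeR adjusted p 1.53e-05). Scd1 was at 264, 227 and 327 CPM in untreated and 100.2, 102 and 104 CPM in colitic libraries, 2.68-fold lower in the mean, and fell by 1.35 (SE 0.17, edgeR adjusted p 1.80e-04). The colitic values of Scd1 were nearly equal, at 102 ± 1.81 CPM (SD, n = 3).

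**Figure D2:**
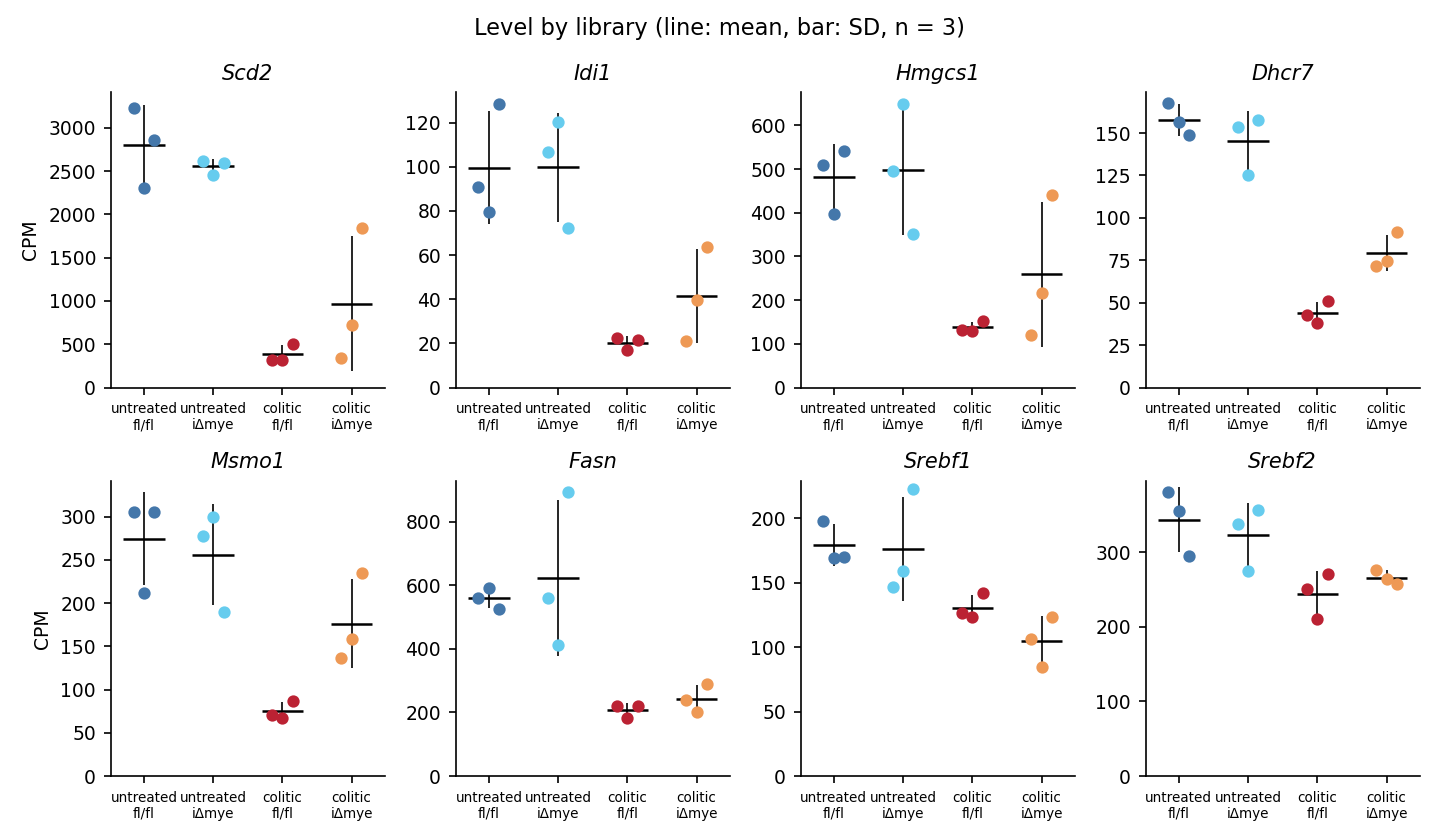
CPM of selected genes in each library (points) with the mean (line) and SD (bar) of each group of 3, on linear axes that start at 0. For Scd2 the 3 colitic Tmem173fl/fl libraries lie at 324, 324 and 504 CPM and the colitic Tmem173iΔmye libraries at 347, 717 and 1846 CPM, against 2307 CPM or more in untreated Tmem173fl/fl libraries.

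Epithelial markers were lower in the same libraries. Of 12 epithelial genes (Epcam, Cdh1, Vil1, Krt8, Krt18, Krt19, Krt20, Cdx1, Cdx2, Cldn3, Cldn7 and Lgals4) 6 were called lower in colitic Tmem173fl/fl mice. Their median log2 fold change was -1.0, and none was at 0 in any library. Their summed level was 6999 to 8658 FPKM in untreated Tmem173fl/fl and 2868 to 5019 FPKM in colitic Tmem173fl/fl libraries. Of 8 cell cycle genes 7 were called lower, with a median of -1.81, and the medians of fibroblast, macrophage and neutrophil markers were 2.62, 1.77 and 7.15. Relative to the epithelial markers, the mean log2 FPKM of the 28 lipid genes was -4.01, -4.21 and -3.76 in untreated and -4.31, -3.92 and -4.47 in colitic Tmem173fl/fl libraries, so that these groups overlapped. For the sterol genes alone the groups overlapped too, at -4.37, -4.66 and -4.17 against -4.73, -4.30 and -4.88. For the fatty acid genes alone they did not, at -3.47, -3.49 and -3.09 in untreated and -3.92, -3.65 and -4.12 in colitic libraries. In Tmem173iΔmye mice the fatty acid values did overlap, at -3.24, -3.68 and -3.17 in untreated and -4.30, -4.23 and -3.61 in colitic libraries. Libraries were also scaled to the epithelial markers, an alternative chosen after the data were seen. In Tmem173fl/fl mice the median of all genes then moved from 0.03 to 1.02, and that of the lipid genes to -0.21. Of the lipid genes 18 were below 0 and 10 above. Under that scaling, with 41.6% of all genes called in either direction against 22.5% without it, 3 of the 28 stayed called, Scd2 at -1.85 (edgeR adjusted p 4.33e-09), Idi1 at -1.28 (edgeR adjusted p 6.57e-04) and Acss2 at -1.10 (edgeR adjusted p 0.00144), and Hmgcs1 (-0.77), Msmo1 (-0.85) and Dhcr7 (-0.80) passed the adjusted p alone.

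**Figure D3:**
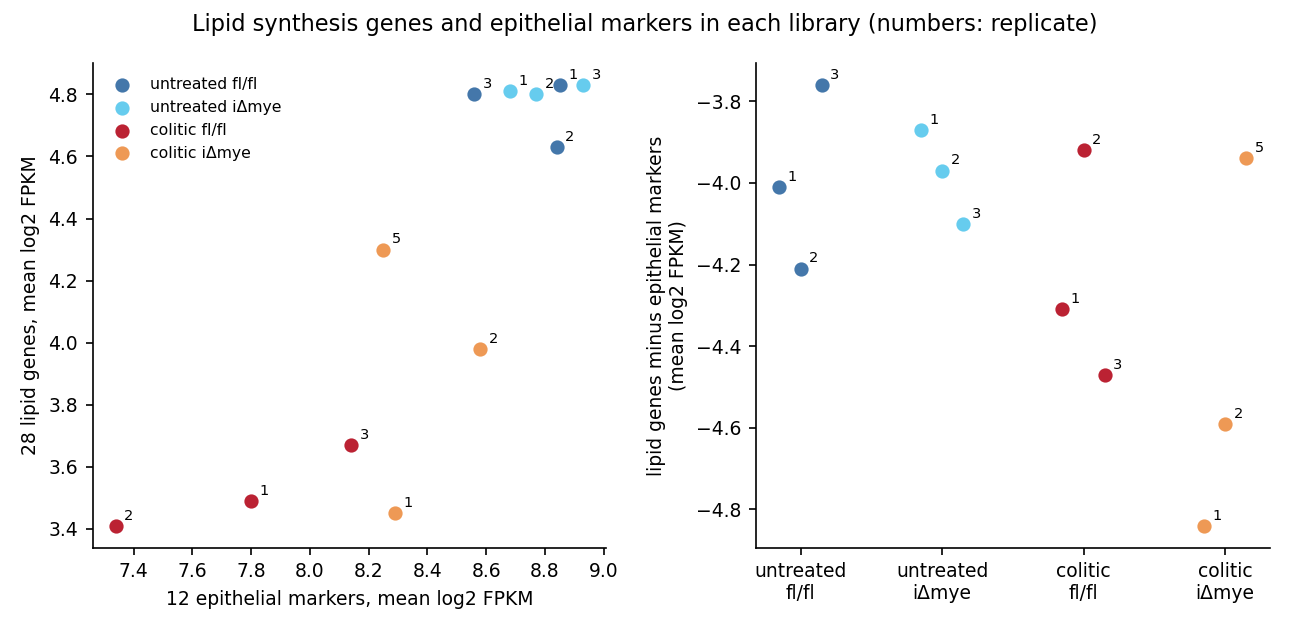
Left, mean log2 FPKM of the 28 lipid genes against that of 12 epithelial markers in each library. Right, their difference by group, with replicate numbers: it runs from -4.21 to -3.76 in untreated Tmem173fl/fl, -4.10 to -3.87 in untreated Tmem173iΔmye, -4.47 to -3.92 in colitic Tmem173fl/fl and -4.84 to -3.94 in colitic Tmem173iΔmye libraries.

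The same comparison was made in Tmem173iΔmye mice, to see how DSS moves these genes when myeloid cells can delete STING. Again all 28 genes had a log2 fold change below 0, with a median of -0.88 against 0.02 over all genes. With the epithelial scaling 24 were below 0, the median was -0.44 and 0 were called (6.08% of all genes). Markers of other cells moved in the same libraries, with medians of -0.40 for epithelial, -1.16 for cell cycle, 1.11 for fibroblast and 3.74 for neutrophil genes. Only Acaca and Fasn were called, 2 of 28, where 0.597% of all genes were called lower (0.639% at the adjusted p alone). The count was 9 with DESeq2, 10 with no filter, 18 with the replicate block and 0 with limma. The share of all genes called in either direction was then 4.72%, 3.29%, 5.68% and at most 0.307%. In the replicate block untreated replicate 3 and colitic replicate 5 had no partner of the same number, so that fit rested on replicates 1 and 2. The groups did not overlap for 18 of the 28 genes, all lower, against 9.41% of all genes. Acaca was at 134, 104 and 173 CPM in untreated and 48.4, 71.8 and 59.7 CPM in colitic libraries (replicates 1, 2 and 5) and fell by 1.2 on the log2 scale (SE 0.24, edgeR adjusted p 0.0329). Fasn was at 561, 413 and 894 CPM and 239, 201 and 289.6 CPM and fell by 1.36 (SE 0.29, edgeR adjusted p 0.0419). For both genes each colitic library was below each untreated one. Dhcr7 passed the adjusted p alone, at -0.88 (SE 0.20, edgeR adjusted p 0.0497), and its adjusted p was 0.109 to 0.254 when any 1 library other than colitic replicate 5 was left out. Both calls were lost when any 1 of the 3 untreated libraries or of colitic replicates 1 and 2 was left out, with adjusted p from 0.0505 to 0.177 for Acaca and from 0.096 to 0.217 for Fasn, whereas 14 of the 28 were called without colitic replicate 5, where the share of all genes called rose from 2.08% to 6.09%.

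Several genes called lower in Tmem173fl/fl mice were spread widely over the colitic Tmem173iΔmye libraries, while Dhcr7, at 71.9, 74.4 and 91.7 CPM, was not. Scd2 was at 347, 717 and 1846 CPM in colitic replicates 1, 2 and 5, against 2615, 2452 and 2592 CPM in untreated Tmem173iΔmye libraries (-1.40, SE 0.47, edgeR adjusted p 0.182). Hmgcs1 was at 119, 216 and 441 CPM against 495, 648 and 351 CPM (-0.95, SE 0.41, edgeR adjusted p 0.303), and Idi1 at 21.2, 39.5 and 63.7 CPM against 107, 120.2 and 72.1 CPM (-1.27, edgeR adjusted p 0.11). Replicate 1 was within the range of colitic Tmem173fl/fl mice for Scd2 and Idi1 and below it for Hmgcs1, and replicate 5 was the highest for all 3. Relative to the untreated mean of the same genotype, the median over the 28 genes was 35.7%, 52.7% and 69.6% in colitic Tmem173iΔmye replicates 1, 2 and 5, and 41.0%, 38.4% and 45.6% in colitic Tmem173fl/fl replicates 1, 2 and 3. Replicate 5 had high Xist, and replicate 1 had the highest pancreatic signal of the 12 libraries, at 8551 FPKM.

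Without DSS, the comparison of genotypes asks whether the inducible deletion alone moves these genes. No lipid gene passed the test, and the log2 fold change was above 0 for 17 of 28 (21 with library totals alone) and below 0 for 11, with a median of 0.07. edgeR called 0 of the 28 genes and 0% of the 24102 genes, 720 of which (2.99%) had an unadjusted p of at most 0.05, while DESeq2 called 3 of all genes and 0 of the 28. The genotypes overlapped for each of the 28 genes, where 7.35% of all genes had groups without overlap. The largest value was that of Scd1, 0.54 with an SE of 0.38, and it rested on replicate 3 of the Tmem173iΔmye group, at 346, 140.2 and 689.7 CPM against 264, 227 and 327 CPM in Tmem173fl/fl libraries. The same library had the highest Fasn (894 CPM), Acly (751 CPM), Acaca (173 CPM) and Srebf1 (222 CPM) of all 12. It also had the highest level among untreated libraries of 5 of 8 fat cell markers (Adipoq, Plin1, Plin4, Cfd and Fabp4, but not Cidec, Lep and Retn), with a summed level of 160.3 FPKM against 6.06 to 117 FPKM in the other untreated libraries. The lowest sum was that of Tmem173fl/fl replicate 1, with Adipoq and Plin1 at 0 and the other 6 markers at 0.227 to 7.57 CPM, and Fasn was at 560 CPM there. The part of fat cells in these values was not tested.

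Between colitic genotypes the question is which lipid genes differ when myeloid cells can delete STING. Most lipid genes had a higher mean in the Tmem173iΔmye group, but only 1 was called. The log2 fold change was above 0 for 24 of 28 genes (11 with the epithelial scaling, 21 with library totals alone), with a median of 0.55 against 0.02 over all genes, and below 0 for Pmvk, Fdps, Lss and Srebf1. The median was 0.36 without colitic Tmem173iΔmye replicate 5 and 0.24 with the pancreatic signal as a covariate. Where 0.822% of all genes were called higher (0.954% at the adjusted p alone), this held for Msmo1 alone. The groups did not overlap for 5 genes, Sqle, Msmo1, Sc5d, Dhcr7 and Scd1, all higher in Tmem173iΔmye mice, against 12% of all genes.

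Msmo1 was at 71.0, 66.8 and 86.5 CPM in colitic Tmem173fl/fl and 137, 158 and 235 CPM in colitic Tmem173iΔmye libraries. Each of the latter was above each of the former, and Msmo1 was higher by 1.23 (SE 0.24, edgeR adjusted p 0.0333). Dhcr7 was at 42.8, 38.2 and 50.8 CPM and 71.9, 74.4 and 91.7 CPM, again without overlap, and passed the adjusted p alone at 0.85 (SE 0.18, edgeR adjusted p 0.0474). Both genes belong to the branch from squalene to cholesterol, where 2 of 11 genes passed the adjusted p. Sqle was at 81.7, 73.0 and 84.1 CPM against 87.0, 126 and 154 CPM (0.61, edgeR adjusted p 0.167) and Sc5d at 66.2, 65.5 and 67.1 CPM against 86.2, 120.5 and 148 CPM (0.82, edgeR adjusted p 0.0738). Neither Sqle nor Sc5d passed the test. Msmo1 was no longer called when any 1 library other than colitic Tmem173iΔmye replicate 1 was left out, with 0.97 without replicate 5 and adjusted p of 0.0731 to 0.164 without the others, nor under limma (adjusted p 0.112 and 0.0685), with the pancreatic signal as a covariate (0.0754) or with the epithelial scaling (0.61, adjusted p 0.212). Nor was it called with Xist as a covariate, where 0 of the 28 genes and 2.3% of all genes were called. Among the colitic libraries only Tmem173iΔmye replicate 5 had high Xist, so that fit nearly repeats leaving replicate 5 out. The median of the 28 genes was 0.363 with this covariate and 0.356 without replicate 5. Without colitic Tmem173iΔmye replicate 1, 3 genes were called, Msmo1, Idi1 and Acss2 (6.61% of all genes, against 2.81% with it), and among the libraries left out in turn Dhcr7 kept its adjusted p under 0.05 without that one only (0.0376). With the epithelial scaling Dhcr7 was at 0.22 (edgeR adjusted p 0.661).

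Genes of the fatty acid branch and the regulators did not pass this test. Scd2 had the largest value, 1.33 (SE 0.53, edgeR adjusted p 0.211), and its 3 Tmem173iΔmye libraries at 347, 717 and 1846 CPM spanned from within to above the Tmem173fl/fl range of 324, 324 and 504 CPM. Scd1 was at 100.2, 102 and 104 CPM against 166, 148 and 186 CPM, without overlap (0.71, edgeR adjusted p 0.0622). For Hmgcs1 the value was 0.90 (SE 0.41, edgeR adjusted p 0.26), and its replicate 1 in Tmem173iΔmye mice, at 119 CPM, was below all Tmem173fl/fl libraries. Without replicate 5 of the Tmem173iΔmye group Scd2 was at 0.45 and Hmgcs1 at 0.26. Acaca (0.16, edgeR adjusted p 0.683) and Fasn (0.22, edgeR adjusted p 0.596) differed little, with overlapping groups. Of the regulators, Srebf1 was at 126, 123 and 142 CPM against 107, 84.9 and 123 CPM (-0.32, edgeR adjusted p 0.385). Srebf2 was at 251, 211 and 271 CPM against 277, 264 and 257 CPM (0.11, edgeR adjusted p 0.768), and Insig1 at 66.6, 66.9 and 70.9 CPM against 44.4, 64.2 and 107 CPM (0.071, edgeR adjusted p 0.922). Insig1 in Tmem173iΔmye mice was thus below the whole Tmem173fl/fl group in replicates 1 and 2 and above it in replicate 5.

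**Figure D4:**
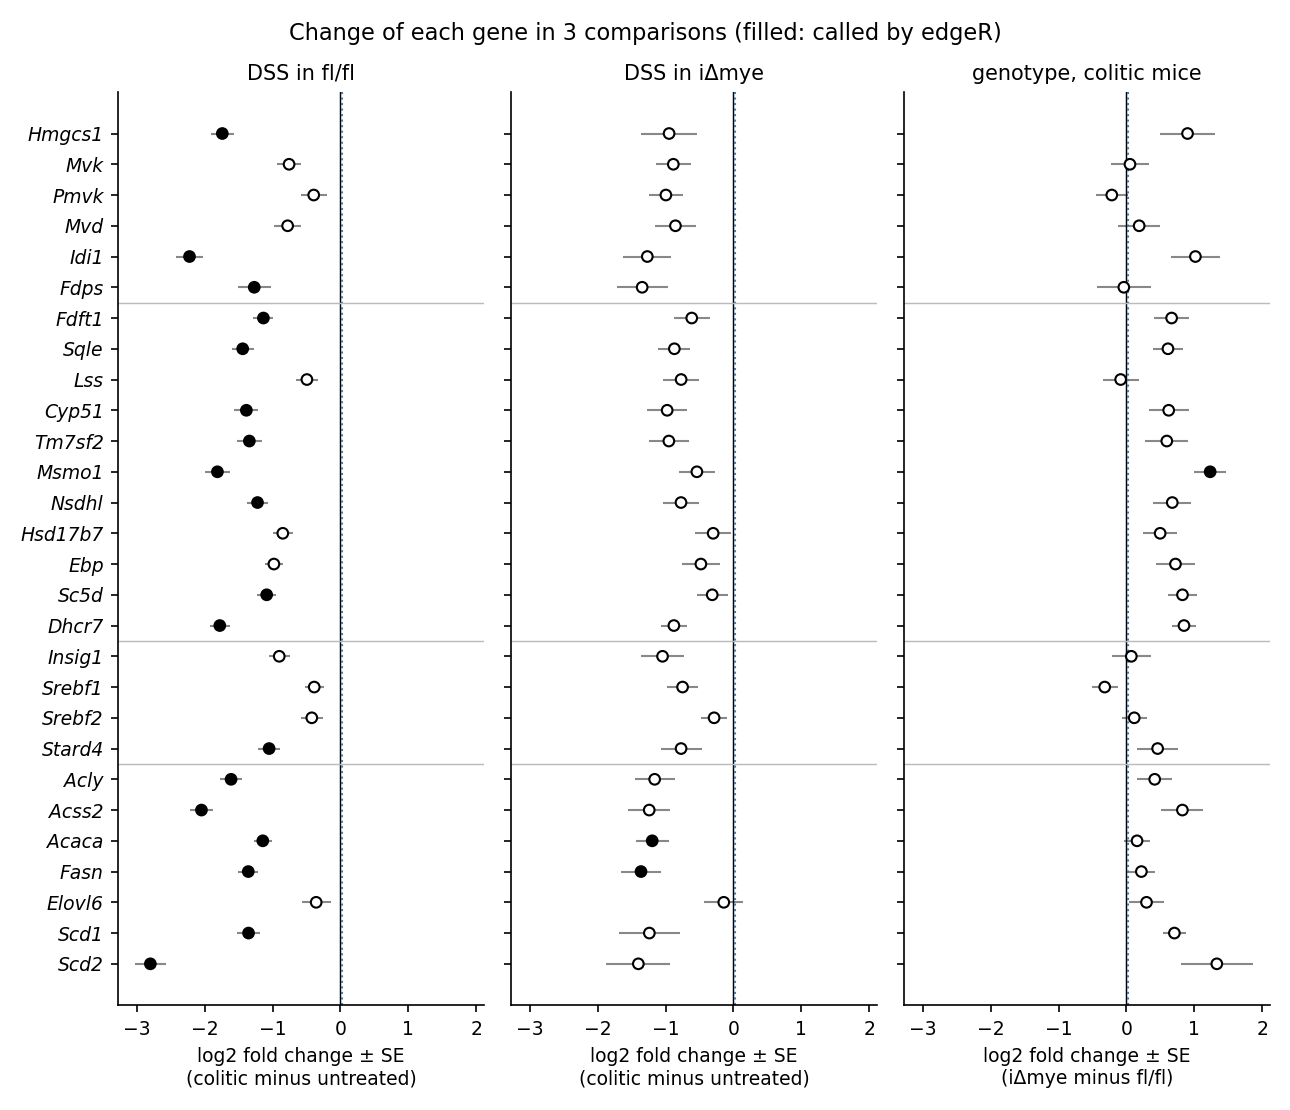
Log2 fold change with SE of each of the 28 genes for DSS in Tmem173fl/fl mice, DSS in Tmem173iΔmye mice and Tmem173iΔmye against Tmem173fl/fl in colitic mice, with called genes filled. In the first panel 18 genes are filled and all lie below 0 (18 below 0 with the epithelial scaling), in the second Acaca and Fasn are filled, and in the third Msmo1.

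Markers of other cells differed between the same colitic libraries. Of the 12 epithelial markers 11 had a log2 fold change above 0, with a median of 0.78. Of these markers 7 were higher in each Tmem173iΔmye than in each Tmem173fl/fl library (12% of all genes), although 0 were called. Their summed level was 5783 to 7146 FPKM in colitic Tmem173iΔmye and 2868 to 5019 FPKM in colitic Tmem173fl/fl libraries. Markers of single epithelial cell types were called higher in part, where 0.822% of all genes were. For colonocytes 5 of 6 were above 0, with a median of 0.90 and 2 called. For goblet cells 6 of 7 were above 0, with a median of 1.3 and 1 called. Fibroblast markers had a median of -1.54 (5 of 6 called lower), neutrophil markers -2.47 (3 of 6) and macrophage markers -0.78 (1 of 7), where 2.81% of all genes were called in either direction. With the epithelial scaling, 0 lipid genes were called between colitic genotypes and their median was -0.10, while that of all genes moved to -0.64.

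The interaction asks whether the DSS effect itself differed between the genotypes, and it rests on the libraries of all the comparisons above. The interaction was above 0 for 21 of 28 genes (8 with the epithelial scaling), with a median of 0.47 against 0.04 over all genes. This median was 0.21 without colitic Tmem173iΔmye replicate 5, 0.71 without colitic Tmem173iΔmye replicate 1, 0.27 with the replicate block and 0.28 with the pancreatic covariate. The replicate block also gave colitic Tmem173iΔmye replicate 5 no weight, as no other library has its number. No lipid gene was called, where 2.55% of all genes were called (2.65% at the adjusted p alone), and 4361 of these 24102 genes (18.1%) had an unadjusted p of at most 0.05. Dhcr7 came nearest, with an interaction of 0.97 (SE 0.23, edgeR adjusted p 0.0387), which passed the adjusted p but not the 2-fold limit, and which was 0.38 with the epithelial scaling (adjusted p 0.510). Msmo1 was at 1.34 (SE 0.34, edgeR adjusted p 0.0504) and Scd2 at 1.47 (SE 0.60, edgeR adjusted p 0.215). Acaca (0.020) and Fasn (0.070) were near 0. Without colitic Tmem173iΔmye replicate 1, 6 genes were called (Idi1, Msmo1, Sc5d, Dhcr7, Acss2 and Scd2, with 7.17% of all genes called), without colitic Tmem173fl/fl replicate 3 only Dhcr7, and without any 1 of the other 10 libraries 0. DESeq2 called 1 of the 28 genes for the interaction, with 5.66% of all genes called.

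Neighbouring genes of the same routes, 39 of a list of 40 passing the filter on low values, showed both directions with DSS in Tmem173fl/fl mice. Of these 11 were called lower and 3 higher, against 7.61% and 14.9% of all genes, with a median of -0.31. In sterol synthesis 3 of 5 were called lower. Of 4 genes for SREBP processing 0 were called. Fads2, the desaturase of polyunsaturated fatty acids, went from 345, 246 and 273 CPM to 37.9, 44.5 and 47.9 CPM, a fall by 2.66 (SE 0.18, edgeR adjusted p 4.61e-06), and Elovl7, an elongase gene, fell by 2.13 (edgeR adjusted p 2.16e-04). Scd3 fell by 3.09 (edgeR adjusted p 0.00282) from about 1 CPM.

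The 3 neighbouring genes called higher were Abca1, Soat2 and Acacb. Abca1, the exporter of cholesterol from cells and abundant in macrophages, was at 24.8, 24.8 and 30.8 CPM in untreated and 152, 201 and 166 CPM in colitic Tmem173fl/fl libraries and rose by 2.76 (SE 0.17, edgeR adjusted p 2.81e-06). Soat2, which esterifies cholesterol, rose by 2.23 (edgeR adjusted p 1.94e-04), while its paralog Soat1 was at -0.77 (SE 0.13, edgeR adjusted p 0.00106) and the efflux gene Abcg1 at -0.14 (edgeR adjusted p 0.683). Acacb, the carboxylase isoform tied to fatty acid oxidation, rose by 1.55 (edgeR adjusted p 0.0011). With DSS in Tmem173iΔmye mice 3 neighbouring genes were called, where 1.48% of all genes were called higher and 0.597% lower. These were Abca1 at 1.67 (edgeR adjusted p 0.00355), Aacs, which activates acetoacetate, at -1.39 (edgeR adjusted p 0.0192) and the lipogenic Thrsp at -2.84 (edgeR adjusted p 0.0474). Thrsp was at 5.28, 10.4 and 34.3 CPM in untreated and 1.57, 3.17 and 2.25 CPM in colitic Tmem173iΔmye libraries. Its size of change thus leaned on untreated replicate 3, the library with the highest summed fat cell markers. Between colitic genotypes Fads2 was the only one called, at 37.9, 44.5 and 47.9 CPM in Tmem173fl/fl and 79.1, 158 and 217 CPM in Tmem173iΔmye libraries, higher by 1.79 (SE 0.33, edgeR adjusted p 0.0311). Abca1 was at 107, 86.4 and 80.1 CPM in colitic Tmem173iΔmye libraries, all below the colitic Tmem173fl/fl ones, and passed the adjusted p alone (2.15% of all genes, lower) at -0.93 (edgeR adjusted p 0.0447). The summed macrophage markers were 367 to 502 FPKM in colitic Tmem173fl/fl and 128 to 315 FPKM in colitic Tmem173iΔmye libraries, and their part in the Abca1 values was not tested.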

How the data were processed

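The 28 lipid genes and the neighbouring gene and marker lists were chosen with earlier results of these data known. The authors extracted total colonic RNA with TRIzol, selected polyA RNA, prepared libraries with a NEBNext Ultra kit and deposited whole-number counts per gene together with FPKM values. The submitters' processing notes name CASAVA 1.8, fastp, HISAT2 2.0.5, featureCounts 1.5.0-p3, DESeq2 1.20.0 and GRCm38 (mm10), and whether counting used strand was not given in the sources used here. The deposited columns of fold changes, p-values and group means hold the authors' own comparisons and were not used.

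The 12 libraries were grouped by their titles, 3 per group, and held 13823237 to 18718915 counts, so depth differed little. The labels do not say how the libraries of a group were raised or extracted, and p-values weigh group differences against the spread between these libraries. On the deposited counts, edgeR 4.0.16 quasi-likelihood tests (glmQLFit, glmQLFTest, TMM scaling) were run in R 4.3.3 on the 24102 of 54532 genes that reached 0.1 FPKM in 3 or more libraries. Each fit held the libraries of the groups it compared, and that of the interaction all 12. Calls needed a fold of at least 2 in either direction and, after Benjamini-Hochberg adjustment over the genes tested, p under 0.05. SEs were derived from the F statistic and the log2 fold change. FPKM served to compare levels between genes and for sums over lists.

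Every lipid gene is accounted for. By the rule for named genes, values per library were given for the called ones, up to 12 per comparison by size, and for Srebf1, Srebf2, Insig1, Hmgcs1, Sqle, Acaca, Fasn, Scd1 and Scd2 for DSS in Tmem173fl/fl mice and between colitic genotypes. Of the neighbouring genes up to 6 called ones per comparison were named, and Acacb, Soat1 and Abcg1 were added after their values were seen. Some neighbouring genes are counted but not reported here by name. Alternatives were other scalings, filters and thresholds, DESeq2 1.42.0, limma 3.58.1 on log2(FPKM + 0.1) or log2(FPKM + 1), a replicate block, leaving out single libraries and 1 fit of all libraries. The epithelial scaling, the covariates for pancreatic signal, Adipoq and Xist, and the added pseudogene counts were chosen after the data were seen. The edgeR test was also run on simulated counts, and the outcome is not reported here. Promoter sequences came from RefSeq (GRCm38.p6), and near-identical copies from an alignment of transcripts.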

Additional observations from a re-analysis of the deposited data

Results flagged for a closer look

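Of the 28 lipid genes and their 39 tested neighbours, 4 genes had a DSS effect that differed between the genotypes by the edgeR interaction test at an adjusted p under 0.05, where 2.65% of all genes passed. Dhcr7 fell less with DSS in Tmem173iΔmye than in Tmem173fl/fl mice, with an interaction of 0.97 (SE 0.23, edgeR adjusted p 0.0387), and its adjusted p was 0.0166 to 0.131 with each library left out. With the epithelial scaling the Dhcr7 interaction was 0.38 (edgeR adjusted p 0.510). Fads2 had an interaction of 2.15 (SE 0.40, edgeR adjusted p 0.0148), with colitic values of 37.9, 44.5 and 47.9 CPM in Tmem173fl/fl and 79.1, 158 and 217 CPM in Tmem173iΔmye mice. Elovl7 had an interaction of 1.67 (SE 0.40, edgeR adjusted p 0.0431), with colitic values of 29.1, 23.1 and 48.8 CPM and 62.4, 94.7 and 130.1 CPM. Abca1 rose less with DSS in Tmem173iΔmye mice, with an interaction of -1.02 (SE 0.24, edgeR adjusted p 0.0416). For Fads2, Elovl7 and Abca1 no values under the alternatives are given here.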

How the results depend on the processing

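Alternatives changed 38 of 110 counts of lipid genes called by more than 1.5 times, and of 662 values of single genes 591 kept their direction and side of the threshold. For DSS in Tmem173fl/fl mice the count was 15 to 19 under other scalings, filters, tools, fits and covariates, 24 with the adjusted p alone and 17 to 20 with each library left out, and 3 with the epithelial scaling, under which Srebf1 (0.61), Srebf2 (0.56) and Insig1 (0.081) turned positive. For DSS in Tmem173iΔmye mice, where 2 were called, the count was 1 with library totals alone or filterByExpr, 10 with no filter, 9 with DESeq2, 9 with an unadjusted p and 2-fold, 0 with limma at either pseudocount or the epithelial scaling, 7 with 1 fit of all 12 libraries, 5 with Xist as a covariate and 0 to 14 with each library left out. Between colitic genotypes, where 1 was called, the count was 0 with limma at either pseudocount, the epithelial scaling or the pancreatic or Xist covariate, 2 with the adjusted p alone, 3 with an unadjusted p, 4 with the Adipoq covariate and 0 to 3 with each library left out. The interaction, with 0 called, gave 1 with no filter, DESeq2 or the adjusted p alone, 3 with an unadjusted p and 0 to 6 with each library left out. Between untreated genotypes it stayed at 0. The share of all genes called moved as well: for DSS in Tmem173iΔmye mice it was 2.08% and became 3.29% with no filter, 4.72% with DESeq2, 9.1% with an unadjusted p, 4.07% with 1 fit, 2.9% with Xist and 5.68% with the replicate block, for colitic genotypes 2.81% became 10.4% with an unadjusted p and 7.67% with Adipoq, and for the interaction 2.55% became 3.69% with no filter and 11.4% with an unadjusted p. For colitic genotypes these values turned negative: Srebf2 to -0.0059 (library totals) and -0.52 (epithelial scaling), Sqle to -0.038, Acaca to -0.50 and Fasn to -0.41 (epithelial scaling), Acaca to -0.0080 (pancreatic covariate), and Insig1 to -0.052 (library totals), -0.049 and -0.044 (limma with 0.1 and 1), -0.58 (epithelial scaling), -0.28 (pancreatic covariate) and -0.33 (Xist covariate). Without single libraries Insig1 ran from -0.34 to 0.32, negative without colitic Tmem173iΔmye replicate 5. Fdps, at -0.039, turned to 0.33 with the counts of Gm3571 added. The replicate block gave 18, 18, 0, 1 and 0 genes in the order DSS in Tmem173fl/fl, DSS in Tmem173iΔmye, genotypes without DSS, genotypes with DSS and interaction, and Insig1 at -0.33 between colitic genotypes. No other library is numbered 5, so the block gave colitic Tmem173iΔmye replicate 5 no weight in any fit that held it. High Xist marked 1 library for DSS in Tmem173fl/fl mice (untreated replicate 3) and between colitic genotypes (Tmem173iΔmye replicate 5). There the Xist covariate nearly repeats leaving that library out. For Insig1 the block, this covariate and leaving out replicate 5 are thus not separate results. Libraries with the same number did not deviate together (correlations from -0.20 to 0.24), so the numbers were not taken as pairs. With 3 libraries a group and counts that depended on single libraries, the small counts in Tmem173iΔmye mice limit what can be read from them. The cause of these changes was not tested.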

Other observations

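Soat2 was at 2.5, 2.77 and 2.0 CPM in untreated Tmem173fl/fl, 7.96, 13.6 and 10.8 CPM in colitic Tmem173fl/fl and 10.2, 12.2 and 2.61 CPM in colitic Tmem173iΔmye libraries, where replicate 5 was at the untreated level.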
